A study of Mus musculus with 6 samples.

Results

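The cytoplasmic ribosomal protein genes encode the proteins that, with ribosomal RNA, build the 2 subunits of the ribosome. Members were the protein-coding genes whose symbol is *Rpsa*, *Rplp0*, *Rplp1* or *Rplp2*, or is Rpl or Rps followed by a number, with or without a final a. The rule found 75 genes among the 47643 gene IDs of the count files: 43 of the large subunit, 29 of the small subunit and 3 of the stalk, a flexible extension of the large subunit. All 75 had enough counts to be tested.

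RNA came from mouse submandibular salivary gland organoids (mSGOs), which are multicellular structures that dissociated adult gland cells form in Matrigel. The mice were C57BL/6 animals of 8 to 12 weeks. All mSGOs were untreated and non-irradiated and were grown in WRY medium, which holds EGF, FGF2, insulin, dexamethasone, Y27632 and conditioned medium with Wnt3a and R-spondin1. From each of 3 mice, 5-day and 7-day mSGOs were sequenced, so there were 6 libraries, 3 per day. Each library read the 3′ ends of polyadenylated transcripts (Lexogen QuantSeq), so that a count stands for a transcript end and is not divided by transcript length. Levels are given in CPM, counts per 1000000 of the library size after TMM scaling.

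Every ribosome needs 1 copy of nearly every one of these proteins, and the stalk proteins *Rplp1* and *Rplp2* are an exception, since they are present in more than 1 copy. Their mRNAs are among the most abundant of a growing cell. They are known as TOP mRNAs, because a tract of pyrimidines (C or T) at their 5′ end lets the growth kinase mTOR, acting in part through the RNA-binding protein *Larp1*, control their translation as a group. Control of that kind acts on the translation of an mRNA and need not change its level, which is what was measured.

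The libraries held between 1918198 and 2837397 counts in genes. The mSGOs carried the epithelial markers of the labelled gland: the 7 duct and keratin genes checked summed to between 11413 and 18111 CPM in a library. Markers of other cells were near 0. The 6 macrophage markers summed to 0.36 to 1.65 CPM at day 5 and 3.45 to 6.85 CPM at day 7, and the 3 erythroid markers were at 0 in every library. The 4 endothelial markers reached at most 0.767 CPM and the 4 fibroblast markers at most 1.96 CPM. The protein genes encoded in the mitochondria took 2.60% to 2.72% of counts at day 5 and 2.26%, 0.926% and 0.924% in mice 1, 2 and 3 at day 7. The ID with the highest count took its largest share, 18.6%, in the day 7 library of mouse 3, and 12.9% to 17.3% in the others. The part of these measures in the results below was not tested. The day 7 library of mouse 3 stood apart from the other 5 in the ribosomal protein genes, so the larger changes that follow from leaving it out are given with the results.

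The members took 4.82%, 5.35% and 5.01% of the counts in genes in the day 5 libraries of mice 1, 2 and 3. They took 4.69%, 5.57% and 4.33% at day 7. The days overlapped, with the highest and the lowest share both at day 7. The day 5 mean was 5.06% ± 0.27 and the day 7 mean 4.86% ± 0.64 (SD, n = 3), a difference of -0.195 percentage points that was smaller than the spread of day 7. The 95% Wilson interval of a library's share reached at most 0.0318 points to either side and covers counting error only. Without the day 7 library of mouse 3 the difference was 0.0707 points, and it was also positive with the TMM-scaled library size as the denominator (0.114) and with all reads of the file (0.0625). No direction can therefore be given for the whole group. In a bulk sample, a lower share cannot be told apart from fewer cells with high levels of these mRNAs.

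**Figure D1:**
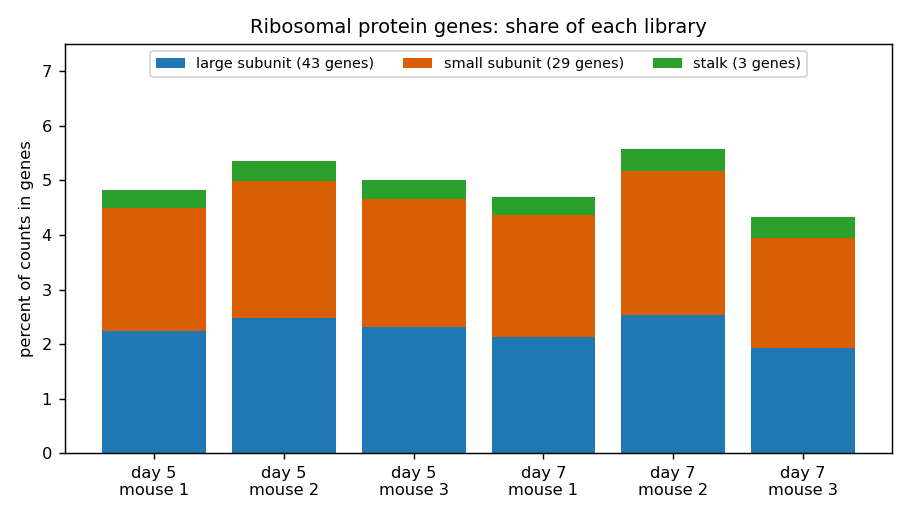
Percent of counts in genes taken by the 43 large subunit genes, the 29 small subunit genes and the 3 stalk genes, stacked, in each of the 6 libraries. The day 7 libraries of mice 2 and 3 are the highest and the lowest, at 5.57% and 4.33%, and the day 5 libraries lie between them.

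Both subunits followed this pattern. The share of the large subunit genes went from 2.35% ± 0.13 to 2.20% ± 0.31, and that of the small subunit genes from 2.37% ± 0.12 to 2.30% ± 0.32 (SD, n = 3). For the 3 stalk genes it was 0.343% ± 0.015 and 0.366% ± 0.038. These differences were within the day 7 spread. In the day 7 library of mouse 3 the stalk share was 0.389%, the highest of all 6 libraries, while the large and small subunit shares of that library, 1.93% and 2.02%, were the lowest.

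Day 7 was compared with day 5 gene by gene, with the quasi-likelihood F test of edgeR on all 15792 genes that passed a filter of 1 count in 2 libraries. The threshold asked for both an adjusted p below 0.05 and a log2 fold change beyond 0.6 in either direction. Among all genes tested, 12.0% were past it, 7.22% higher and 4.82% lower. Among the 75 ribosomal protein genes it was 2 (2.67%), *Rpl27a* higher and *Rpl41* lower at day 7. Before adjustment, 10 members (13.3%) had a p below 0.05, against 4080 of all genes (25.8%). The log2 fold changes of the members lay between -0.85 and 0.97 with a median of -0.07, against -0.01 for all genes tested. Of the 75, 32 were positive and 43 negative, 44 were within 0.3 of 0 and 8 were beyond 0.6. The median standard error of a member's log2 fold change was 0.21.

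**Figure D2:**
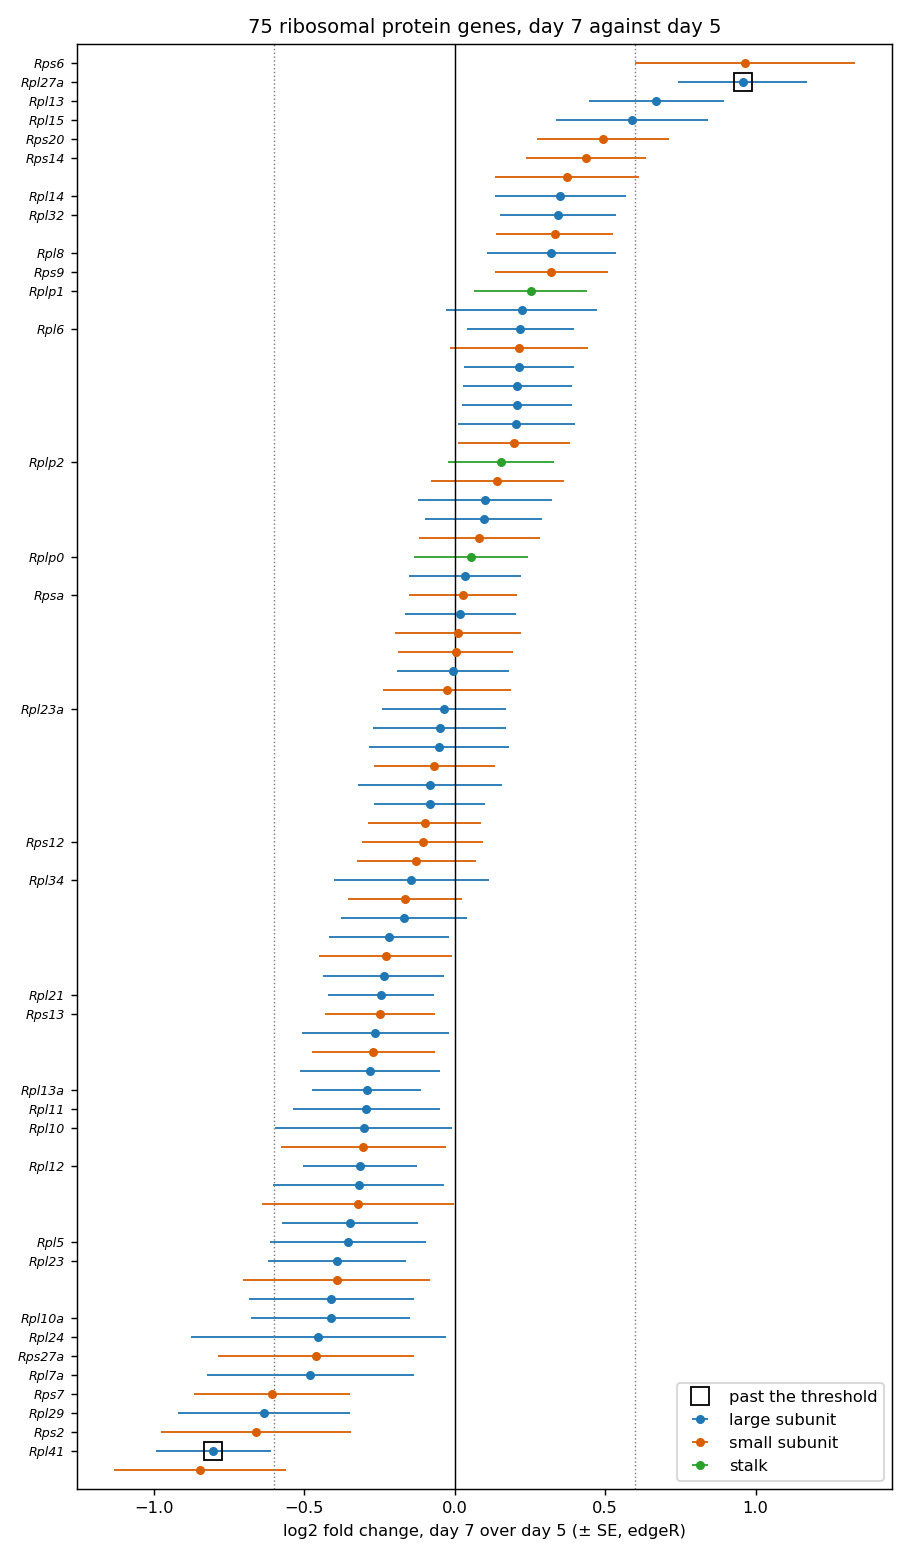
Log2 fold change of day 7 over day 5 for each of the 75 genes, ordered by size, with bars of 1 standard error from edgeR and colours for large subunit, small subunit and stalk; dotted lines mark -0.6 and 0.6. Names are given for genes described in the text. *Rpl27a* and *Rpl41*, framed, are past the threshold, and large and small subunit genes are mixed along the order.

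*Rpl27a* (ENSMUSG00000046364, GRCm39 chromosome 7, 109118254 to 109121583, plus strand) encodes a protein of the large subunit. Its level was 219, 249 and 253 CPM at day 5 and 339, 449 and 614 CPM at day 7 in mice 1, 2 and 3. All 3 day 7 libraries were above all day 5 libraries. The log2 fold change was 0.96 ± 0.21 (SE, edgeR adjusted p = 0.00611). It was 0.71 without the day 7 library of mouse 3, with an edgeR adjusted p of 0.00379, and so past the threshold there too. Without day 5 replicate 1 or 2 the edgeR adjusted p was 0.0629 and 0.0554.

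*Rpl41* (ENSMUSG00000093674, chromosome 10, 128383979 to 128387628, minus strand) encodes a very short basic peptide of the large subunit. It had 313, 317 and 276 CPM at day 5 and 191, 186 and 142 CPM at day 7. The days did not overlap. The log2 fold change was -0.80 ± 0.19 (SE, edgeR adjusted p = 0.00890), and -0.68 without the day 7 library of mouse 3 (edgeR adjusted p = 0.00314). Its edgeR adjusted p was 0.0630 without day 5 replicate 1 and 0.0769 without day 5 replicate 2.

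Members with the next smallest p-values did not pass. *Rpl13*, of the large subunit, had 819, 996 and 1000 CPM at day 5 and 986, 1589 and 1905 CPM at day 7 (log2 fold change 0.67 ± 0.22, edgeR adjusted p = 0.0584). Without day 7 replicate 1 it was past the threshold, at 0.90 (edgeR adjusted p = 0.00135). The 2 days overlapped, at mouse 1 of day 7. *Rps6*, the substrate of the S6 kinases downstream of mTOR and in antibodies a common readout of that pathway, had only 28.9, 11.5 and 9.00 CPM at day 5 and 29.9, 44.4 and 21.5 CPM at day 7. Its log2 fold change was 0.97 ± 0.37 (edgeR adjusted p = 0.0962), the highest of the members, from one of the lowest levels. It moved with single libraries: it was 1.65 and past the threshold without day 5 replicate 1 (edgeR adjusted p = 0.0164). Leaving out day 5 replicate 3 or day 7 replicate 2 gave 0.65 (edgeR adjusted p = 0.374 and 0.393).

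The design pairs the libraries by mouse. With the mouse as a block, edgeR called 10 members, against 14.8% of all genes tested. They included *Rpl13*, *Rps6* and *Rpl27a*, higher at day 7, and *Rps27a*, *Rps2*, *Rpl29*, *Rps7*, *Rpl7a* and *Rpl41*, lower. The edgeR adjusted p of *Rps2* was 0.00326 in that fit.

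The 3 day 7 libraries lay all above or all below the 3 day 5 libraries in 16 members (21.3%), against 31.0% of all genes tested. The 8 higher ones included *Rpl27a*, *Rpl32*, *Rpl6*, *Rplp2*, *Rps14*, *Rps20* and *Rps9*. The 8 lower ones included *Rpl12*, *Rpl13a*, *Rpl21*, *Rpl29*, *Rpl41*, *Rps13* and *Rps7*. Both subunits were in both lists, and *Rplp2* was the one stalk gene.

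The members spread much further in one library than in the others. For each gene, the log2 ratio of a library's CPM to the day 5 mean was taken. The SD of these ratios over the 75 genes was 0.24 and 0.35 in the day 7 libraries of mice 1 and 2 and 0.79 in that of mouse 3. In the 3 day 5 libraries, which make up the mean, it was 0.12 to 0.19. Over 1678 other protein-coding genes of at least 100 CPM the same SD was 0.75, 0.82 and 0.84 for mice 1, 2 and 3 at day 7. These genes were chosen on the mean of all 6 libraries, so genes high only at day 7 could enter. Their log2 fold changes reached 9.21. The SD of the ribosomal protein genes was thus smaller than that of other abundant genes in mice 1 and 2 and near it in mouse 3. This is a description, with no test of the difference.

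**Figure D3:**
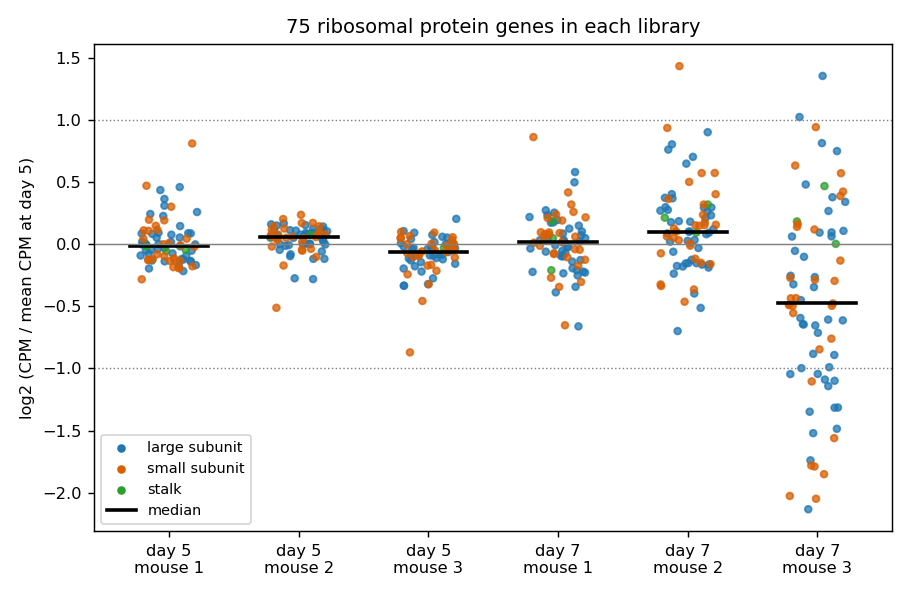
Log2 ratio of CPM to the mean CPM at day 5 for the 75 genes in each of the 6 libraries, 1 point per gene, coloured by subunit, with the median as a bar and dotted lines at 2-fold. The points of the day 7 library of mouse 3 run from -2.13 to 1.35 with a median of -0.48; the medians of mice 1 and 2 at day 7 are 0.02 and 0.10.

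In the day 7 library of mouse 3, 47 of the 75 members had their lowest value of the 6 libraries and 13 their highest. In that library 19 members were more than 2-fold below their day 5 mean, 12 of the large and 7 of the small subunit, and 2 were more than 2-fold above. In mouse 1 no member was beyond 2-fold, and in mouse 2 it was 1, above. The same counts were not taken over other genes, so they cannot be called particular to the members. The ratios of the other abundant genes had an SD of 0.84 in the library of mouse 3. That SD cannot decide it, because it includes changes with the day and was 0.75 and 0.82 in mice 1 and 2. The median coefficient of variation of a member was 7.86% among the day 5 libraries and 25.7% among the day 7 libraries, against 7.38% and 19.4% for the other abundant genes. It was larger at day 7 in 66 of the 75 members. The order of the members by level was kept more closely in mice 1 and 2, with Spearman correlations to the day 5 mean of 0.986 and 0.966 over the 75 genes, than in mouse 3, with 0.908. The genes share libraries and scaling, so these are descriptions.

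The members furthest below their day 5 level in that library came from several places in the ribosome. *Rps2*, at the entry of the mRNA channel of the small subunit, had 722, 607 and 561 CPM at day 5 and 585, 457 and 152 CPM at day 7. *Rps27a*, made as a fusion with ubiquitin, had 779, 612 and 505 CPM at day 5 and 498, 702 and 175 CPM at day 7. *Rpl7a*, named here because it had the lowest ratio of all members, had 421, 324 and 311 CPM at day 5 and 366, 309 and 80.3 CPM at day 7. Against the day 5 mean, the log2 ratios of the day 7 libraries were -0.11, -0.46 and -2.05 for *Rps2*, -0.34, 0.15 and -1.85 for *Rps27a*, and 0.05, -0.19 and -2.13 for *Rpl7a*, so that in all 3 genes mouse 3 lay far below mice 1 and 2. The log2 fold changes of *Rps2* and *Rps27a*, -0.66 and -0.46 (edgeR adjusted p = 0.194 and 0.381), were -0.27 and -0.07 without that library. *Rps2* was at -1.04 and past the threshold without day 7 replicate 1 (edgeR adjusted p = 0.0159).

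*Rps7* had 466, 586 and 477 CPM at day 5 and 423, 407 and 173 CPM at day 7, a difference of -0.61 ± 0.26 on the log2 scale (edgeR adjusted p = 0.141). *Rpl29*, a large subunit gene, had 58.1, 62.8 and 75.3 CPM at day 5 and 56.0, 49.6 and 19.6 CPM at day 7 (-0.64 ± 0.29, edgeR adjusted p = 0.165). In both the day 7 libraries were all below day 5, by little in mice 1 and 2. Without the library of mouse 3 the log2 fold changes were -0.30 for *Rps7* and -0.31 for *Rpl29*, and without that of mouse 1 they were -0.81 and -0.89 and past the threshold (edgeR adjusted p = 0.0331 and 0.0358).

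*Rpl5* and *Rpl11* carry the 5S ribosomal RNA into the large subunit and, when free of the ribosome, bind Mdm2, the ubiquitin ligase of p53. *Rpl5* had 350, 333 and 304 CPM at day 5 and 288, 351 and 132 CPM at day 7. *Rpl11* had 816, 940 and 854 CPM at day 5 and 882, 851 and 394 CPM at day 7. Their log2 fold changes were -0.35 ± 0.26 and -0.29 ± 0.24 (SE), with edgeR adjusted p of 0.403 and 0.475. Mice 1 and 2 were near the day 5 range in both genes, and mouse 3 was below it. Without that library the log2 fold changes were -0.04 for *Rpl5* and -0.01 for *Rpl11*. *Rpl10*, which joins the large subunit late, had 72.6, 56.7 and 46.5 CPM at day 5 and 50.2, 67.7 and 23.0 CPM at day 7 (-0.30 ± 0.29, edgeR adjusted p = 0.558). For *Rpl23* it was -0.39 ± 0.23 (edgeR adjusted p = 0.293). Without the library of mouse 3 the log2 fold change of *Rpl10* was 0.01 and that of *Rpl23* -0.15.

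Other members were highest in the same library. *Rps20*, the most abundant member, had 1724, 1969 and 1956 CPM at day 5 and 1992, 2347 and 3614 CPM at day 7 (log2 fold change 0.49 ± 0.22, edgeR adjusted p = 0.157). Its log2 fold change was 0.20 without the library of mouse 3, and 0.66 and past the threshold without that of mouse 1 (edgeR adjusted p = 0.0200). *Rps14* had 1111, 1591 and 1353 CPM at day 5 and 1803, 1591 and 2094 CPM at day 7 (0.44 ± 0.20, edgeR adjusted p = 0.169). In all, 6 members were more than 1.5-fold above their day 5 mean in that library: *Rpl27a*, *Rpl13*, *Rps20*, *Rpl14*, *Rpl8* and *Rps14*.

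The stalk recruits the translation factors that use GTP. *Rplp0*, its base, had 652, 709 and 660 CPM at day 5 and 582, 840 and 674 CPM at day 7. *Rplp1* had 1671, 1752 and 1656 CPM at day 5 and 1749, 1961 and 2340 CPM at day 7. *Rplp2* had 918, 993 and 952 CPM at day 5 and 1085, 1018 and 1083 CPM at day 7. No stalk gene was among the 19 members with a low value in mouse 3. Their log2 fold changes were 0.05 ± 0.19, 0.25 ± 0.19 and 0.15 ± 0.18 (SE, edgeR adjusted p = 0.903, 0.412 and 0.633). That of *Rplp0* was -0.03 with library totals only as scaling, and that of *Rplp1* 0.13 without the day 7 library of mouse 3.

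Genes at named sites of the ribosome were counted by lists, so short that a count of 0 says little beside the 12.0% of all genes tested. None of the 8 genes that line or rim the exit tunnel for the growing protein was past the threshold (log2 fold change -0.08 to 0.22), among them *Rpl23a* with -0.04 ± 0.21 (SE, edgeR adjusted p = 0.958). None of the 5 genes at the mRNA channel was (-0.66 for *Rps2* to 0.32 for *Rps9*), and none of the 3 genes at the beak, which include *Rps12* (-0.11 ± 0.20, edgeR adjusted p = 0.798). *Rpsa*, whose product is also described as a laminin-binding protein, was at 0.03 ± 0.18 on the log2 scale (edgeR adjusted p = 0.970), at -0.01 with upper quartile scaling and at -0.07 with library totals only.

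Without the day 7 library of mouse 3, edgeR called 4 members, *Rpl15*, *Rps6* and *Rpl27a* higher and *Rpl41* lower, against 16.7% of the genes tested in that fit, and the median log2 fold change of the members was 0.05. Without the day 7 library of mouse 1 it called 8, against 16.1%. *Rpl15* had 37.1, 22.6 and 22.7 CPM at day 5 and 41.0, 47.9 and 34.8 CPM at day 7.

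The members differed widely in level, from a mean of 4.68 CPM for *Rpl24* to 2267 CPM for *Rps20*, with a median of 514 CPM, although the ribosome holds their proteins in nearly equal numbers. Of the 75, 20 were above 1000 CPM, 49 between 100 and 1000 CPM and 6 below 100 CPM, namely *Rpl10*, *Rpl10a*, *Rpl15*, *Rpl24*, *Rpl29* and *Rps6*. The 5 most abundant, among them *Rps20*, *Rplp1*, *Rpl23a* and *Rps12*, took 18.5% of the members' counts on average over the libraries and 23.2% at most. These are levels of counted transcript ends, which depend on whether an end can be placed in the genome.

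Ribosomal protein mRNAs have left many processed copies in mammalian genomes, and a read from an end that is copied cannot be placed at 1 gene. The last 300 bases of each member were therefore searched against GRCm39 in windows of 50 bases. At least 50% of the windows had an exact copy elsewhere in 46 of the 75 members, with a median of 65.7% over all members. Of 12899 other protein-coding genes tested, 3.58% reached 50%, and their median was 0. Those genes were read from the canonical transcript, and the members from the coding transcript with the shortest 3′ UTR of at least 20 bases. With the canonical transcript, 30 of the 75 members reached 50%, with a median of 26.3%. The copies of 60 members lay at 1007 loci. Of these, 236 were of *Rpl17*, with 16.7% of its windows copied and 0 annotated pseudogenes at the loci. Not all loci are therefore shown to be processed copies. How the authors counted reads that align to several places is not given in the sources used here.

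The copied members lay lower. Their median level was 439 CPM, against 694 CPM for the 29 members with fewer copied windows, and 5 of the 6 members below 100 CPM were among them. Their median log2 fold change was -0.23 against 0.14. In the day 7 libraries of mice 1, 2 and 3 their median log2 ratios were -0.01, 0.03 and -0.61, against 0.08, 0.28 and -0.05. In that of mouse 3, 15 of the 46 and 4 of the 29 were more than 2-fold below day 5. Over the 75 members the share of copied windows had a Spearman correlation of -0.43 with the log2 fold change and of -0.35 with the mean level. With the log2 ratios of mice 1, 2 and 3 at day 7 it was -0.22, -0.48 and -0.31. The 4 halved members with no copied window were *Rps27a*, *Rpl5*, *Rpl11* and *Rpl34*, and *Rpl27a* and *Rpl41*, past the threshold, had 2.39% and 92.4% of their windows copied. The part of the copies in the results was not tested.

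**Figure D4:**
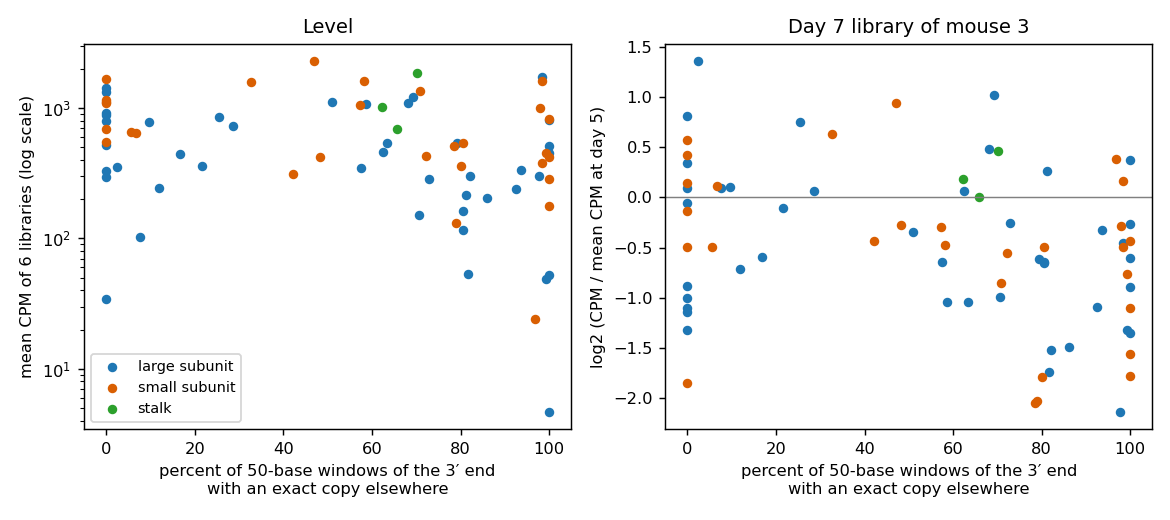
Each point is 1 of the 75 genes; the horizontal axis is the percent of 50-base windows of its 3′ end with an exact copy elsewhere in GRCm39. The left panel gives the mean CPM of the 6 libraries on a log scale, and the right panel the log2 ratio to the day 5 mean in the day 7 library of mouse 3, where both low and high genes occur at 0% and the lowest point (-2.13) lies at 97.6%. A value of 0% holds for the annotated end that was searched.

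The 5′ starts are shown for some of the genes that the results turn on, because the pyrimidine tract that marks these mRNAs should stand there. Each window of 30 bases runs from 10 bases before the annotated start of the canonical GENCODE vM39 transcript to 20 bases from it on, 5′ to 3′ in the sense of the gene, read from GRCm39. Capitals mark the longest run of at least 5 C or T that reaches within 5 bases of the start.
Rpl13 (chr8:123829062-123829091, plus strand): gcgtgacgtcaCTTCCCTTTCgcctgattt
Rpl15 (chr14:4198703-4198732, plus strand): aagCCTTCTTCCTTTCCTCTggcggcagcc
Rps27a (chr11:29497845-29497874, minus strand): cgctcggaTCTTCCTTTCCgatccgccatc
Rps2 (chr17:24939072-24939101, plus strand): cggcgCCTCCCTCTTCTTCTTCTTCgggag
Rpl27a (chr7:109118244-109118273, plus strand): gggcgccaccggttcaccccgcccatccac
Rpl41 (chr10:128385003-128385032, minus strand): tgacgacaccgagcacgccattaaatagca

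The first 4 hold a run of 10 to 20 pyrimidines, and the windows of *Rpl27a* and *Rpl41*, which are past the threshold, hold none by this rule. These 4 do not stand for all members that were not past it. The run was only 5 long in *Rps6*, *Rps7* and *Rps20*, and *Rpl5*, *Rpl11* and *Rpl29* had none by this rule. Over all members 27 of 75 (36.0%) had such a run, against 32.4% of the 12899 other protein-coding genes tested. With a run of at least 7 it was 18.7% against 13.1%, and with a C exactly at the start 8.00% against 4.02%. The start of a canonical transcript in the annotation need not be the start used in these cells. An absent run says only that none reaches within 5 bases of the annotated start. Runs that begin further inside the window were not counted, as in the window of *Rpl10*.

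Other ribosomal genes, whose symbols fall outside the rule, were read from a list. *Fau* had 266, 264 and 245 CPM at day 5 and 332, 395 and 395 CPM at day 7 (log2 fold change 0.54 ± 0.18, edgeR adjusted p = 0.0608). *Rack1*, which binds the small subunit, had 0.34 ± 0.18 (edgeR adjusted p = 0.243). *Rps3a1* and *Rps4x* had log2 fold changes of -0.19 ± 0.29 and -0.34 ± 0.25 (edgeR adjusted p = 0.748 and 0.394), with 62.2 and 55.3 CPM in the day 7 library of mouse 3 against 127 to 193 and 113 to 135 CPM at day 5. None of the 5 genes of this list was past the threshold. None of the 6 paralogues tested was either, and the one with the smallest p, *Rps27l*, had -0.56 ± 0.18 (edgeR adjusted p = 0.0519).

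Of 77 mitochondrial ribosomal protein genes tested, whose products build the separate ribosome of the mitochondrion, 0 were higher and 4 lower at day 7 by edgeR, against 7.22% higher and 4.82% lower among all genes tested, with a median log2 fold change of -0.20. Before adjustment, 19 had a p below 0.05, against 25.8% of all genes. The count of lower genes and the count of p below 0.05 were thus near those of all genes. The count of higher genes was 0, and 22 of the 77 log2 fold changes were positive. The 4 lower ones were *Mrpl18* (-1.06), *Mrpl20* (-1.12), *Mrpl54* (-1.09) and *Mrps22* (-0.998). *Mrpl18* had 146, 173 and 142 CPM at day 5 and a mean of 73.4 ± 2.54 CPM at day 7 (SD, n = 3), with the 3 mice close together. With the mouse as a block 0 genes of the list were higher and 7 lower, where 14.8% of all genes were past the threshold in either direction. Without the day 7 library of mouse 3 it was 0 and 13, where 16.7% were past it in either direction. The share of all genes that was lower was not taken separately in these fits. The share of the whole list was 0.343% ± 0.018 in the day 5 libraries and 0.269% ± 0.029 in the day 7 libraries (SD, n = 3).

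The factors that work on the ribosome were read from 2 lists, whose counts stand beside the same 7.22% higher and 4.82% lower among all genes tested. Of 8 elongation factor genes tested, *Eef2*, which moves the ribosome along the mRNA, was higher, with 1136, 1033 and 1093 CPM at day 5 and 1681, 1887 and 2544 CPM at day 7 (log2 fold change 0.91 ± 0.20, edgeR adjusted p = 0.00544), and 0 were lower. Of 28 initiation factor genes, 3 were higher, *Eif3f* (1.03), *Eif4b* (0.89) and *Eif3h* (0.84), and 4 lower, *Eif3j1* (-1.10), *Eif4a1* (-0.94), *Eif4g1* (-0.71) and *Eif5* (-0.64). These lists moved in no single direction, with medians of -0.19 and -0.13. *Eef2* was no longer past the threshold without day 5 replicate 2 or 3, and *Eif3f* stayed past it whichever library was left out. *Eif3h* kept its call on leaving out day 7 replicate 1 and lost it on leaving out any other library. Of the 4 lower initiation factors, 0 were past it without day 5 replicate 1 or 2, 1 without day 5 replicate 3 and 2 without day 7 replicate 2.

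Of 17 other genes whose mRNAs carry a TOP tract, 5 were higher and 0 lower, against 7.22% and 4.82% of all genes tested, with a median log2 fold change of 0.24: *Eef2*, *Eif3f*, *Eif4b* and *Eif3h*, which the lists above also hold, and *Gas5* (0.82), a host of small nucleolar RNAs. Fewer were higher when a day 5 library was left out, namely 3, 2 and 1 for mice 1, 2 and 3, and also 3 when the day 7 library of mouse 2 was. *Larp1* was the one gene past the threshold among 9 genes that regulate TOP mRNAs or ribosome production, with 229, 160 and 168 CPM at day 5 and 145, 109 and 91.5 CPM at day 7 (-0.69 ± 0.22, edgeR adjusted p = 0.0435), a call that was lost whenever a library other than day 7 replicate 1 was left out. Of 8 genes for chaperones and assembly helpers of ribosomal proteins, 0 were higher and 2 lower, beside the same 2 shares of all genes: *Heatr3* (-1.48 ± 0.31, edgeR adjusted p = 0.00410), which works in the import of Rpl5, and *Ltv1* (-0.79 ± 0.20, edgeR adjusted p = 0.0133), which works in the assembly of the small subunit. The median of that list was -0.65. *Heatr3* stayed past the threshold whichever library was left out, and *Ltv1* lost its call whichever day 5 library was left out. Without day 7 replicate 3 and with the mouse as a block, 4 and 3 genes of the list were lower.

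**Figure D5:**
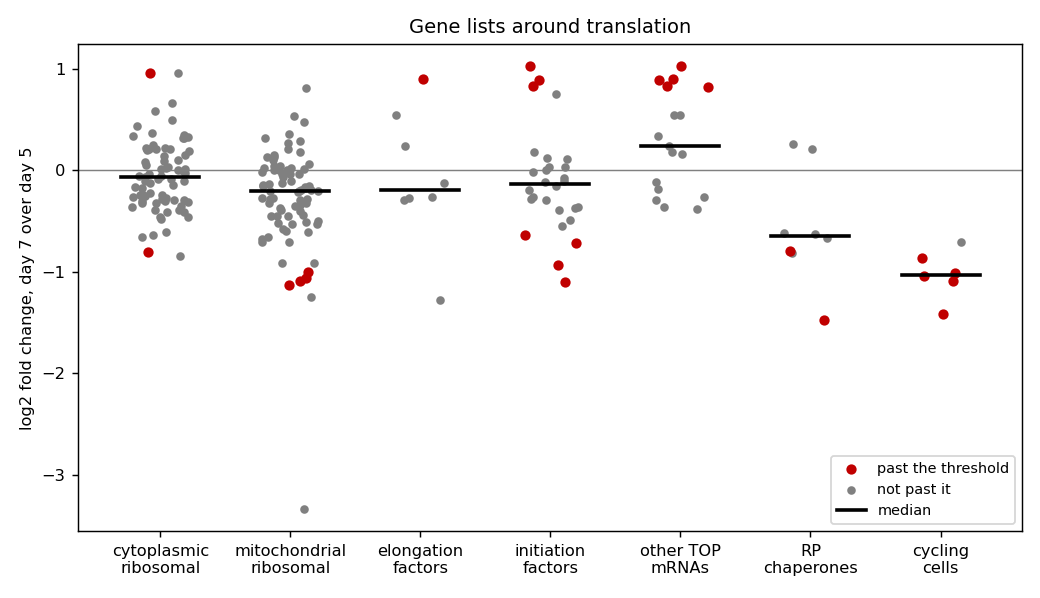
Log2 fold change of day 7 over day 5 for each gene tested of 7 lists, with the list median as a bar and genes past the threshold in red. The cytoplasmic ribosomal protein genes have 2 red points of 75 and a median of -0.07; other TOP mRNAs have 5 of 17 (median 0.24), chaperones 2 of 8 (-0.65) and genes of cycling cells 5 of 6 (-1.03).

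Genes of cycling cells moved with the day and are given for that reason. Of the 6 read, 5 were lower at day 7 and 0 higher, against 4.82% and 7.22% of all genes tested, with log2 fold changes of -1.41 to -0.71 over the 6. Without day 5 replicate 2 it was 2. *Mki67* had 299, 280 and 229 CPM at day 5 and 112, 66.6 and 125 CPM at day 7. The low values of *Mki67* at day 7 were present in all 3 mice, and the day 7 library of mouse 3 was the highest of the 3. Its part in the ribosomal protein levels was not tested.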

How the data were processed

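mSGO libraries of 3 mice at day 5 and day 7 were prepared by the authors with Lexogen QuantSeq from 100 ng of RNA. Each deposited file holds whole-number read counts per Ensembl gene ID, not normalised; per the labels the build is GRCm39 and edgeR was used. The aligner, the annotation release, the strand setting and how reads with several alignments were handled are not given in the sources used here. Entries that name no gene took 13.7% to 14.4% of reads at day 5 and 9.12% to 9.74% at day 7, and entered neither library sizes nor tests.

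Symbols came from GENCODE vM39 by exact ID (43465 of 47643 IDs matched). The filter kept IDs with 1 count or more in 2 libraries or more. They were tested two-sided in edgeR 4.0.16 (R 4.3.3) by glmQLFit and glmQLFTest with TMM, robust = FALSE and the day as sole term, and with Benjamini-Hochberg adjustment over all 15792 genes. The script was tested on simulated data. Alternatives were other scalings, filters, tools (DESeq2 1.42.0, limma 3.58.1), the mouse as a block and leaving out each library. A gene at 0 could hold up to 3 counts in a library, 1.04 to 1.51 CPM, a bound for counting error alone, as the reads carry no molecular identifiers. No pair of libraries of a day agreed within sampling noise (smallest chi-square per degree of freedom 1.99).

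Same-numbered libraries come from the same mouse, by their titles and the design text. After subtracting the day means, the 2 libraries of a mouse correlated at 0.14, -0.10 and 0.16 over 8171 genes.

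Copies of 3′ ends were exact matches of 50-base windows, on either strand, of the last 300 bases of the coding transcript with the shortest 3′ UTR of at least 20 bases. For other genes the canonical transcript was read, at every 10th window. Members overlapped another gene's exons on the same strand in 5 cases and on the opposite strand in 34, so their counts may be shared.

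Named members were those past the threshold, the 6 smallest p-values in each direction, the 5 highest levels and 9 genes with particular roles; genes of other lists were named when past the threshold, or else the one with the smallest p. Some genes that this rule names are not reported here. The members and lists were chosen with earlier results of these data known.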

Additional observations from a re-analysis of the deposited data

Results flagged for a closer look

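Outside the members, 278 IDs annotated as pseudogenes are named after ribosomal protein genes. Together they held 3412 counts over the 6 libraries, which drew attention because no result above was read from them as a group. Those that passed the filter were tested among all genes. They had 492, 434 and 629 counts in the day 5 libraries of mice 1, 2 and 3 and 605, 735 and 517 at day 7. Their share of counts in genes averaged 0.0223% ± 0.0016 in the day 5 and 0.0239% ± 0.0020 in the day 7 libraries (SD, n = 3). In the day 7 library of mouse 3, where 47 of 75 members had their lowest value, the share was 0.0240%, within the range of the other libraries. Annotated pseudogenes at the exact copies of member ends, 522 in all, held 6952 counts, 0.0396% to 0.0466% of a day 5 library and 0.0445% to 0.0558% of a day 7 library. Whether these reads came from the pseudogenes or from members was not tested.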

How the results depend on the processing

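The count of ribosomal protein genes past the threshold was 2 and depended on the model. It was 7 with no filter on low counts, 0 with glmTreat and 10 with the mouse as replicate block in the paired fit, in which both calls were kept; of all genes tested in these fits 12.9%, 3.95% and 14.8% were past it, and 12.0% in the reported fit. Leaving out 1 library gave 0 to 8: 1 and 0 without day 5 replicate 1 and 2 (5.81% and 5.15% of all genes), and 8 and 4 without day 7 replicate 1 and 3 (16.1% and 16.7%). The 1 was Rps6. The cause was not tested. The difference in share was -0.547 to 0.0707 points when 1 library was left out, all within the day 7 SD of the main value. Over the 23 named members and 12 alternatives on all libraries, giving 276 values, 15 passed the threshold newly and 2 no longer passed (Rpl27a and Rpl41 under glmTreat). The direction turned in 3, none past the threshold: Rplp0 was at -0.0328 with library totals only, and Rpsa at -0.0106 with upper quartile scaling and -0.0673 with library totals only. Leaving out 1 library turned 5 genes that were never past the threshold: log2 fold changes ranged from -0.662 to 0.0149 for Rpl10, from -0.192 to 0.133 for Rpl23a, from -0.101 to 0.169 for Rplp0, from -0.270 to 0.0559 for Rps12 and from -0.0433 to 0.0762 for Rpsa. The number of members with at least 50% of 3′ windows copied was 46, and 38, 25, 47 and 30 with windows of 75 bases, of 100 bases, with the last 500 bases and with the canonical transcript, the last chosen after seeing the data. Depth limits the lowest members most: Rpl24 had 6 counts in the day 7 library of mouse 3. The block and left-out libraries for the other gene lists, given with their counts, were also chosen after seeing the data.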
